A study of Arabidopsis thaliana with 21 samples.

Results

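A set of 159 genes of 37336 counted formed the module of transcripts that stood higher with ethylene than with water at 6, 16 and 24 h of imbibition in wild-type Arabidopsis thaliana seeds. A gene belonged to it when its group mean with ethylene was at least 1.5 times that with water at each time and at least 3 CPM (CPM is a gene's count scaled to the library's sum over genes, not divided by gene length) at each time. Of 12564 genes with such an ethylene level at all 3 times, 165 (1.31%) met the fold threshold at each, and 6 of the 10 genes that are left out by name were among them. Those 6 are left aside here, with folds at 6, 16 and 24 h of 80.2, 245 and 101 for ARGOS, 22.9, 211 and 87.7 for ORS1, 16.6, 170.1 and 33.6 for ACO1, 6.01, 22.4 and 11.4 for FLS2, 4.7, 12.3 and 7.6 for ETR2 and 3.02, 11.3 and 9.34 for ERS1. The other 4 missed a threshold, with 26.5, 284 and 41.6 for EDF3, 4.96, 24.2 and 8.05 for TEM1, 4.64, 2.55 and 1.29 for ERS2 and 15.9, 15.7 and 0.705 for ERF1. The members were thus chosen by the ratio of ethylene to water, and its values are given here as a description, with no test.

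Messenger RNA was sequenced in 21 libraries of 7 groups, with 3 libraries each. All groups were wild-type seeds under long days, and they were either dry or imbibed for 6, 16 or 24 h in water or with ethylene. The treatment label of the water and dry groups names no agent. The labels give no ethylene concentration and no strain of the plants. The submitters call the replicates biological but name no separate seed lots or cultures, so p-values measure the spread between these libraries, which may be technical. Replicate 2 of ethylene at 16 h went against its label and entered neither the choice of members nor the tests. The median ratio of that library over the members was 0.992 to the water 16 h mean and 0.172 to the mean of the other ethylene 16 h libraries. In this library 142 of 159 members were at or under the highest water 16 h library, and 0 reached the lowest of the other ethylene 16 h libraries. Those other libraries chose the members, which bears on these values. Outside the members, the storage marker CRA1 was at 56637 CPM in replicate 2. It was at 52249–61634 CPM in water and 4819–5657 CPM in the other ethylene 16 h libraries. The leaf marker RBCS1A was at 203.9 CPM, against 179.8–213.4 and 665–704.4 CPM. With replicate 2 kept, the rule found 153 genes, and the median fold of the 159 members at 16 h was 4.09 in place of 5.67.

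Ethylene is a gaseous plant hormone that is sensed by receptors in the endoplasmic reticulum membrane. Without it the receptors keep the kinase CTR1 active and the pathway off; with it EIN2 signals to the nucleus, where the transcription factors EIN3 and EIL1 accumulate and switch on target genes, among them ethylene response factors. In seeds ethylene is known to favour germination and to act against abscisic acid, the hormone that holds seeds dormant, and in dark-grown seedlings it shapes the apical hook.

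Because the members were chosen for a shared response, the DNA before their starts was read from the RefSeq genome of the assembly TAIR10.1 at RefSeq's own gene starts. The counts were made against TAIR10 and carry no coordinates, so nothing was carried from one build to the other. In the window from 250 bases before to 50 bases after the start, 4 motifs were searched on both strands in 157 protein-coding members. The GCC box GCCGCC, which ethylene response factors bind, was in 2 of 157 member windows (1.27%), against 2.57% of 27443 protein-coding genes and 2.96% of the 12343 protein-coding genes over the CPM floor. ATGTA, the core of the EIN3 site, was in 95 (60.5%), against 56.4% and 54.1%. The longer EIN3 consensus was searched as ACGAACCT, ACGAATCT, ACGTACCT, ACGTATCT, ATGAACCT, ATGAATCT, ATGTACCT and ATGTATCT, of which those with ATGTA also hold the core. It was in 7 (4.46%), against 6.97% and 6.27%. The G-box CACGTG, bound by bHLH and bZIP factors, was in 12 (7.64%), against 7.68% and 9.41%. The share for the GCC box rests on 2 members, and none of these shares was tested.

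The 250 bases before the start of 5 members are shown, 5′ to 3′ on the strand of the gene, with the G-box or the longer EIN3 consensus in capitals. They were chosen because they hold such a match and their levels are described here: AT2G43140 had the largest fold at 16 h, BMY3 and CCR2 were among the 12 members with the highest smallest fold, and NAC080 and ATAUX2-11 are a NAC factor and an auxin repressor gene.
AT2G43140, chr2:17935749-17935998, minus strand: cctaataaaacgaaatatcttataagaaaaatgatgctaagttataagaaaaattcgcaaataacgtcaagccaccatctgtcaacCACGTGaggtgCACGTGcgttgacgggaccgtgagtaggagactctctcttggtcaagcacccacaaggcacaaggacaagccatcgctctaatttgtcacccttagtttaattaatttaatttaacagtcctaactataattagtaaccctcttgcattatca
BMY3, chr5:6225706-6225955, plus strand: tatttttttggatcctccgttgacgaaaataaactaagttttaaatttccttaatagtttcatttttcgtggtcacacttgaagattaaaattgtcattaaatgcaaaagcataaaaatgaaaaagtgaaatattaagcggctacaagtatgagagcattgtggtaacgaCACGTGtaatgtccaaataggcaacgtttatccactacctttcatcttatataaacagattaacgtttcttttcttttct
CCR2, chr2:16346770-16347019, minus strand: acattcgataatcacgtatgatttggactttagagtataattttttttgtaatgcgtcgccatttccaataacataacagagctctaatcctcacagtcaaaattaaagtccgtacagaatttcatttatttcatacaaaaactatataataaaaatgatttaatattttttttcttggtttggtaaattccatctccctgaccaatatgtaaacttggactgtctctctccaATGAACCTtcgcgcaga
NAC080, chr5:2435545-2435794, plus strand: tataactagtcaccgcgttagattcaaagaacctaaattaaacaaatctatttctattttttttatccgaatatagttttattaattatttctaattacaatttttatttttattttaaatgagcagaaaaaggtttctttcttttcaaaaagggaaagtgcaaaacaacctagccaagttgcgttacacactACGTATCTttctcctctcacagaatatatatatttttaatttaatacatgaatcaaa
ATAUX2-11, chr5:17549929-17550178, plus strand: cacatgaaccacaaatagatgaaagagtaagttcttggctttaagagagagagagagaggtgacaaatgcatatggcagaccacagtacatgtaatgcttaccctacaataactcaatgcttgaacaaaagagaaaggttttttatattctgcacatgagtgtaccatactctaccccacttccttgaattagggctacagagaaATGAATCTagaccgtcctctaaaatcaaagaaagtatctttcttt
AT2G43140 held 2 G-boxes, from 164 to 159 and from 153 to 148 bases before the start, and BMY3 held 1 from 80 to 75 bases before it. The consensus match ended 10 bases before the start in CCR2, 50 in NAC080 and 38 in ATAUX2-11. None of these 5 stretches overlapped another annotated gene. A match describes these letters and is not a measured binding site.

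Each library had between 12154732 and 22109880 reads, and the sums over genes ran from 11687098 to 21198649. Summed CPM of 11 seed storage and desiccation markers was 95452–99391 in dry seeds, 31780–33798 in water and 29491–30541 with ethylene at 6 h. At 16 h the sum was 83785–100020 in water and 8482–10055 with ethylene, and at 24 h it was 112793–122602 and 784–1138. The 3 endosperm markers summed to 11925–14970 in dry seeds and, water before ethylene, to 7426–8184 and 6974–7747 at 6 h, 10181–11371 and 2516–2804 at 16 h, and 5651–6106 and 1529–1789 at 24 h. EPR1 made up nearly all of that sum in dry seeds, in water and at 6 h, but was at 695–881 CPM with ethylene at 24 h. The other endosperm markers did not all move with it. EXPA2 was at 30.3–76.8 CPM in water and 296.5–305.5 with ethylene at 16 h, and at 77.0–116.5 and 734–814 at 24 h. MAN7 was at 61.5–79.3 and 53.2–58.0 CPM at 16 h, and at 55.8–63.6 and 79.0–94.5 at 24 h. The 3 seed coat markers summed to 6.5–13.9 except with ethylene at 24 h, at 32.1–35.5. MUM4 made up nearly all of that higher sum, at 32–35.5 CPM, while BAN and PRX36 were at most 0.0944 CPM there. PRX36 was at 2.47–3.03 CPM in dry seeds and at most 0.152 CPM in imbibed seeds. The 6 leaf markers summed to 16.3–20.7 in dry seeds and at 6 h, and then to 201–241 in water and 766–806 with ethylene at 16 h and to 509–803 and 1612–1769 at 24 h, most of it RBCS1A. The leaf marker LHCB2.1 was at 0 in every 16 h library used, and no other marker was at 0 in a whole group. Water 24 h replicate 3 held the leaf marker CAB3 at 129.7 CPM, against 0.171 and 1.15 in the other water 24 h libraries. At 6 h the endosperm sums and the leaf sums of water and ethylene libraries overlapped, while at 16 and 24 h the storage, endosperm and leaf sums of the arms did not. The part of these marker levels in the members' levels was not tested. In whole seeds, fewer cells of a type and less RNA per cell cannot be told apart.

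The members' excess over water was smallest at 6 h and largest at 16 h. The median ratio of ethylene to water was 1.98 at 6 h (range 1.5 to 10.01), 5.67 at 16 h (1.74 to 206.5) and 4.34 at 24 h (1.54 to 57.2). At 6, 16 and 24 h, 78, 152 and 139 members reached 2-fold, and 1, 56 and 25 reached 10-fold. The fold was largest at 16 h in 125 members, at 24 h in 26 and at 6 h in 8, and it was smallest at 6 h in 136. In each member, at each time, every ethylene library used was above every water library. Over all genes above the CPM floor the median ratio was 1.01, 1.22 and 1.29, and the share at 1.5-fold or more was 1.85% at 6 h (248 of 13399), 35% at 16 h (5127 of 14636) and 42.3% at 24 h (6429 of 15191). These ratios are of CPM without the TMM scaling that the tests use. The TMM factors were 1.03–1.04 in both arms at 6 h. At 16 and 24 h they were 1.05–1.09 in water and 1.28–1.37 with ethylene, so ratios at these times are lower with TMM scaling. By the shares in CPM the condition at 6 h left the fewest genes. Of the 248 genes past it, 191 (77.0%) also met both thresholds at 16 h, 169 (68.1%) at 24 h and 165 (66.5%) at all 3 times. Since the rule fixed these directions, the shares describe the choice of members.

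**Figure D1:**
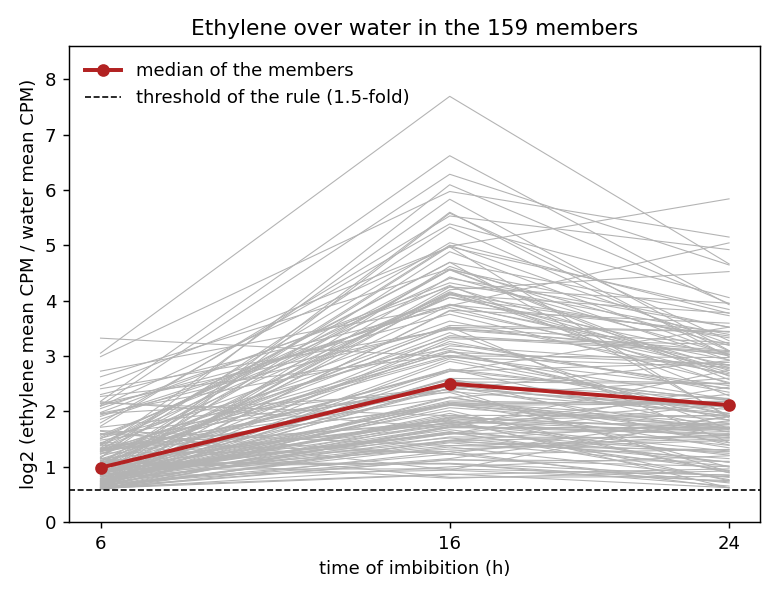
Ratio of the ethylene mean to the water mean (log2 of CPM ratios, vertical axis) of each of the 159 members at 6, 16 and 24 h (grey lines), with their median (red) and the 1.5-fold threshold (dashed). The median is 1.98-fold at 6 h, 5.67-fold at 16 h and 4.34-fold at 24 h.

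Close to the fold threshold lay AT2G17710, AXS1, AT3G28160 and AT3G11210, with smallest folds of 1.5, 1.5, 1.5 and 1.51, and, just outside, UMAMIT20, ABS2, GONST3 and CCP1 with 1.49. At the CPM threshold the members AT1G72416, AT3G28160, ERD3 and AT1G26930 had smallest ethylene means of 3.03, 3.19, 3.21 and 3.38 CPM. Just below it lay AT5G17780, ATGA2OX3, AT1G11330 and AT2G41225 at 2.84, 2.84, 2.96 and 2.98 CPM. A fold threshold of 1.2 in place of 1.5 gave 466 genes and one of 2 gave 68, while a floor of 10 CPM in place of 3 gave 102.

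The joint share of the members in the reads on genes was 0.13 to 0.135% in dry seeds. In water it was 0.445 to 0.458% at 6 h, 0.228 to 0.279% at 16 h and 0.32 to 0.367% at 24 h. With ethylene the share was 0.918 to 0.938% at 6 h, 1.52 to 1.54% at 16 h and 1.65 to 1.66% at 24 h. So their joint share was lower at 16 h than at 6 h in water and higher with ethylene, and the libraries of these 4 groups did not overlap. The highest ethylene mean was at 6 h in 37 members, at 16 h in 58 and at 24 h in 64, and the highest water mean was at 6 h in 79, at 16 h in 12 and at 24 h in 68. Of the members, 157 were protein coding, AT2G44798 was a long noncoding RNA and AT3G28160 a pseudogene. RBCS3B, ABCB15 and AT1G61370 belong to families known for close copies. Reads that mapped to several places (1.44 to 2.47% of all reads) were kept apart from the gene counts. How many of those came from these genes was not measured, so their counts are uncertain.

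**Figure D2:**
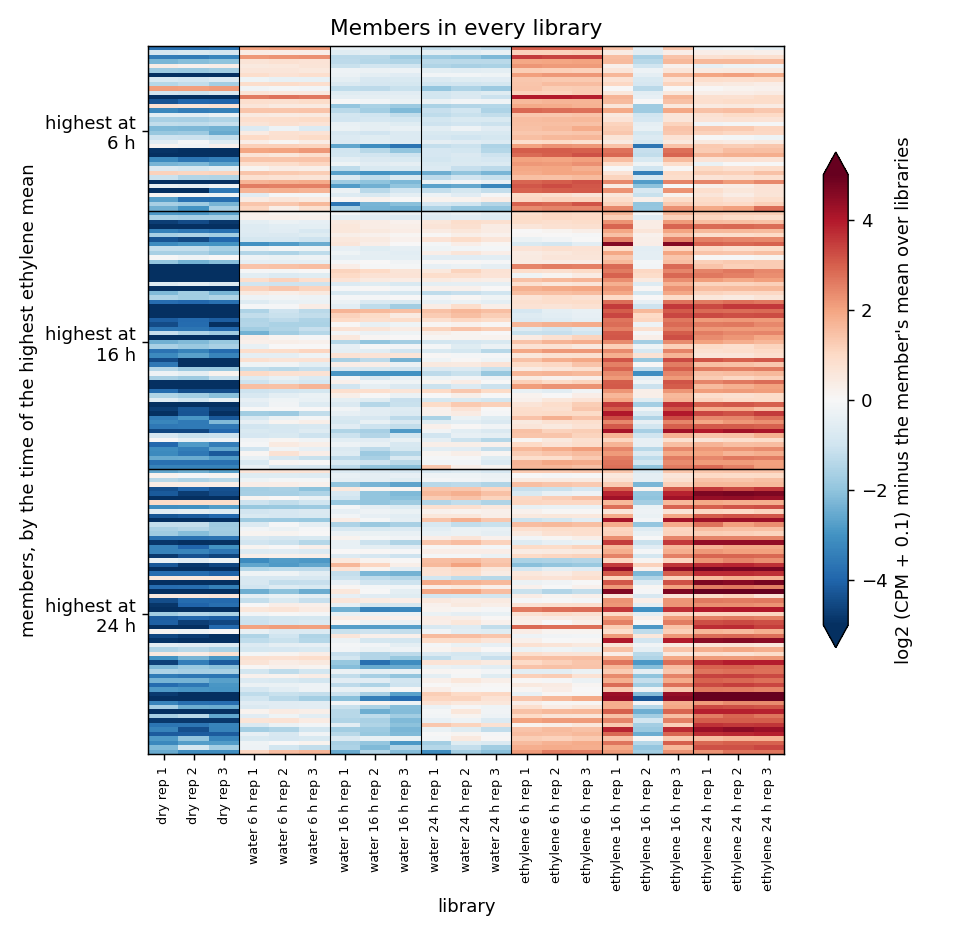
Level of the 159 members (rows, in blocks by the time of their highest ethylene mean: 37, 58 and 64 members) in each of the 21 libraries (columns), as log2 (CPM + 0.1) minus the member's mean over libraries, with the colours ending at 5 units either way. The library labelled ethylene 16 h replicate 2 has the colours of the water 16 h libraries.

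The listed ethylene pathway genes made up a small part of the members, in part because genes that passed both thresholds are left out by name. Of 17 listed genes of perception and signalling, CTR1 was the only member. ETR2 and ERS1 passed both thresholds but are left out by name, and ERS2, also left out by name, missed the fold at 24 h. CTR1, the kinase that represses the pathway, was at 239, 243 and 244 CPM with ethylene and 139, 135 and 136 CPM in water at 6 h. At 16 h it was at 144 and 137 against 71.7, 76.6 and 71.4 CPM, and at 24 h at 135, 133 and 128 against 76.2, 75.1 and 84.2 CPM. Its excess was narrow, 1.77, 1.92 and 1.68-fold at the 3 times, yet no library overlapped. Of this list 6, 7 and 5 genes reached 1.5-fold at 6, 16 and 24 h (median fold 1.21, 1.41 and 1.25), while 0, 2 and 3 lay at least as far below water. As shares of the list these were 35.3%, 41.2% and 29.4%, against 1.85%, 35% and 42.3% of all genes over the floor at that time, and 0%, 11.8% and 17.6%, against 0.918%, 12.7% and 17.7%. At 16 and 24 h the list thus lay near or below the share of all genes. EBF2, an F-box gene whose product removes EIN3, missed the rule with folds of 1.75, 1.45 and 1.29, and RTE1, a regulator of the receptor ETR1, with 2.17, 1.89 and 1.43. Among 27 listed response genes, 2 were members (HLS1 and ARL). Of 5 others left out by name ARGOS and ORS1 passed both thresholds, and EDF3, TEM1 and ERF1 did not. Of the 17 synthesis genes 0 were members, and ACO1, which passed both, is left out by name. Over all genes with ethylene at the CPM floor at all 3 times, 1.31% met both thresholds before any were left out by name. Each list held a larger share of genes that met both before that omission. These were CTR1, ETR2 and ERS1 of perception and signalling, HLS1, ARL, ARGOS and ORS1 of the response genes and ACO1 of synthesis. The lists were chosen with earlier results of these data known, and no share was tested. Of the response genes over the floor at 6, 16 and 24 h (12, 14 and 15), 66.7%, 78.6% and 80% reached 1.5-fold. Of the 6 synthesis genes over it 16.7%, 66.7% and 83.3% did, against 1.85%, 35% and 42.3% of all genes. At least as far below water lay 0%, 7.14% and 13.3% of the response genes and 16.7%, 0% and 0% of the synthesis genes.

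HLS1, an acetyltransferase-like gene required for the apical hook, was at 187, 177 and 175 CPM with ethylene at 6 h and 66.9, 68.2 and 69.1 CPM in water. At 16 h it stood at 96.7 and 97.5 against 10, 7.92 and 5.52 CPM and at 24 h at 70.7, 75.4 and 66.1 against 11.5, 13 and 8.66 CPM, folds of 2.64, 12.4 and 6.41. It lay at 2.27–2.66 CPM in dry seeds, below both arms at every time on the CPM scale. ARL, a relative of the ethylene-desensitizing gene ARGOS, was at 93.5, 99.2 and 91 CPM against 20, 30.6 and 23.4 CPM at 6 h. Its levels were 114 and 115 against 10.9, 8.74 and 10.4 CPM at 16 h and 212, 135 and 161 against 18.2, 13.7 and 14.8 CPM at 24 h. The ethylene 24 h libraries of ARL were spread widely, and the lowest of them still lay far above water.

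Transcription factor genes in the module included 5 NAC, 5 bHLH, 5 homeobox and 8 other factor genes, grouped after their values were known. By key words in the product names, 16 of 159 members (10.1%) matched the class of transcription factors or DNA-binding proteins, against 5.58% of the genes over the floor. These key words include the phrase domain protein, which other proteins can carry, and miss the NAC gene NAC6. The shares thus count product names rather than known factors. Each product was counted in the first class whose key words it matched, and these classes do not match the role groups used here. Hydrolase and cell wall products made up 8.81% of members against 3.74% and transferases 10.1% against 5.23%. Products named cytochrome P450, oxidase or oxygenase made up 5.03% against 2.09% and transporters 4.403% against 3.34%. The kelch gene AT1G26930, with galactose oxidase in its product name, was counted as an oxidase. Kinases and receptors made up 5.66% against 5.82%, F-box, ubiquitin and protease products 1.26% against 2.95%, and unknown products 6.92% against 4.98%. None of these shares was tested. The bHLH gene AT2G43140 was at 10.3, 12.3 and 14.8 CPM with ethylene against 1.9, 1.47 and 1.14 CPM in water at 6 h. At 16 h it was at 84.3 and 94.9 against 0.841, 0.271 and 0.189 CPM, and at 24 h at 197, 192 and 208 against 8.3, 8.7 and 6.55 CPM. It had 0 counts in all dry libraries and 0.107 CPM in the library labelled ethylene 16 h replicate 2. Its fold of 207 at 16 h was the largest of any member at any time, over a water level of few counts. HEC1, a bHLH gene of the HECATE group, and PIF3, a bHLH factor that phytochrome controls, had folds of 2.47, 33.1 and 13.7 and of 2.07, 3.58 and 3.82.

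NAC6, a NAC factor known for promoting leaf senescence, lay at 4.09, 4.2 and 4.08 CPM with ethylene and 0.914, 0.538 and 0.416 CPM in water at 6 h. It was at 4.42 and 3.67 against 0.316, 0.163 and 0.33 CPM at 16 h and at 10.9, 10.8 and 12 against 0.342, 0.419 and 0.258 CPM at 24 h. In CPM without TMM scaling the ethylene level was alike at 6 and 16 h and more than doubled by 24 h, while water stayed under 1 CPM. NAC080 and NAC083 had their highest levels with ethylene at 24 h, at 16.9–21.2 and 31.4–35 CPM, against 2.27–3.04 and 2.82–3.3 CPM in water. NAP, another senescence factor, had its highest level at 6 h, at 113–115 CPM against 55.3–63.3 CPM, with folds of 1.96, 17.7 and 5.66. NAC019 was at 71.5–74.1 CPM with ethylene at 16 h and 20–20.2 CPM in water, and its fold of 1.54 at 24 h lay near the threshold.

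Of the homeobox genes, WOX11, known for founding adventitious roots, was at 456, 457 and 437 CPM with ethylene and 176, 195 and 185 CPM in water at 6 h, from 0.0553–0.161 CPM in dry seeds. It then lay far lower, at 95.3 and 91.8 against 21.4, 21.7 and 21.4 CPM at 16 h and 51.4, 50.3 and 55.7 against 15.6, 17.8 and 14 CPM at 24 h. HB16 and HB23 ran the other way with ethylene, from 8.7–12.6 and 5.46–7.21 CPM at 6 h to 52.5–56.5 and 51.6–57.4 CPM at 24 h, against 3.4–4.82 and 5.13–5.66 CPM in water. Among the other factors, MYB90, an activator of anthocyanin synthesis, had folds of 3.95, 20 and 10.5, and ESE3, an AP2/ERF-type factor, of 2.04, 6.79 and 3.18. AGL15, a MADS-box factor of embryos, had 1.69, 2.61 and 2.47, and CRF3, a cytokinin response factor, 1.57, 7.73 and 4.15.

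**Figure D3:**
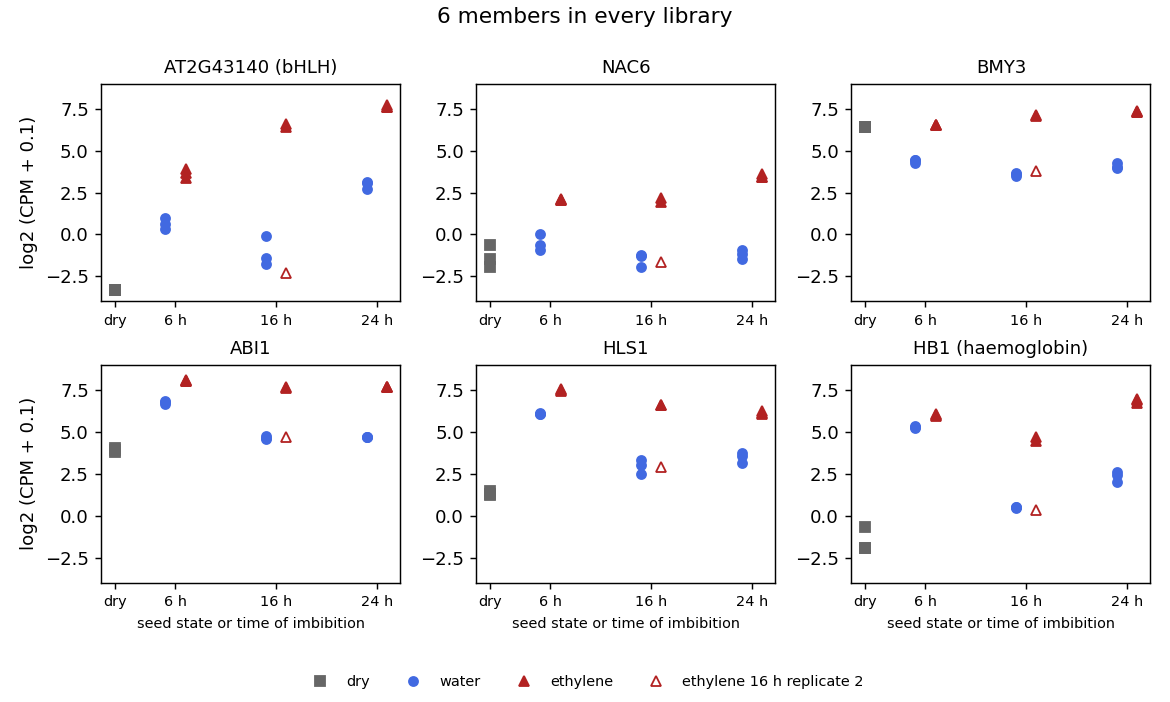
Level (log2 of CPM + 0.1) of 6 members in every library, for dry seeds and for water and ethylene at 6, 16 and 24 h; each point is 1 library, and the open triangle is the library labelled ethylene 16 h replicate 2. Filled ethylene triangles lie above the water points at each time, and the open one lies at or under the level of the water libraries or close above it.

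Members tied to other hormones included 4 of abscisic acid, 9 of auxin and 2 of jasmonate. ABI1, a protein phosphatase gene whose product represses abscisic acid signalling, was at 259, 264 and 270.2 CPM with ethylene and 103, 115 and 109 CPM in water at 6 h. At 16 h the values were 200.1 and 203 against 26.9, 24.7 and 23.8 CPM, and at 24 h 207, 206 and 203 against 26.1, 26.3 and 26 CPM. The fold of 2.42 at 6 h and of 8.02 and 7.85 later came with a water level far lower than at 6 h and an ethylene level of 200.1–203 and 203–207 CPM. PYL6, an abscisic acid receptor gene, was at 50.2–55.6 CPM against 0.991–2.22 CPM at 16 h, with folds of 2.07, 32 and 9.32. CIPK15, a kinase gene, had 1.83, 4.42 and 3.44. ABCG25, which exports abscisic acid from cells, had its largest fold at 6 h, at 6.68, 6.93 and 7.28 CPM against 2.21, 2.88 and 2.7 CPM, and folds of 1.75 and 1.77 later.

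Among the auxin genes, IAGLU, which joins glucose to auxin, was at 776, 714 and 725 CPM with ethylene and 313, 324 and 334 CPM in water at 6 h. Both arms were lower later, at 198 and 184 against 26.6, 26 and 20.2 CPM at 16 h and 116, 123 and 121 against 19.3, 17.7 and 14.5 CPM at 24 h. AUX1, the auxin influx carrier, ran upward instead, from 9.61–11.9 CPM with ethylene at 6 h to 56.7–58 at 16 h and 90.8–96.7 CPM at 24 h, against 4.57–5.87, 7.81–10.2 and 11.1–14.3 CPM in water. Genes of 4 small auxin up RNA (SAUR) proteins had folds of 2.48 to 3.76 at 6 h, 8.6 to 41.8 at 16 h and 3.58 to 16.6 at 24 h. ATAUX2-11, an Aux/IAA repressor gene, was at 58.3–59.1 CPM against 15.8–19.2 CPM at 16 h, and the transporter genes ABCB21 and ABCG37 had 16 h folds of 11.5 and 3.01. JAZ1, a repressor of the jasmonate response, had folds of 2.16, 6.66 and 4.61, and CYP94C1, which inactivates the jasmonate signal by oxidation, of 2.79, 5.28 and 1.88.

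Cell wall genes formed a group of 13, with a median fold of 1.84 at 6 h, 17.9 at 16 h and 4.87 at 24 h. BXL2, a beta-xylosidase gene, was at 28, 36.5 and 39.5 CPM with ethylene and 15.2, 15 and 16.3 CPM in water at 6 h. It reached 664 and 678 against 27.6, 12.1 and 10.4 CPM at 16 h and 1216, 1288 and 1224 against 145, 162 and 131 CPM at 24 h. The water 16 h libraries were uneven, with replicate 1 above the other two, and the fold of 40.2 rests on that low mean. PME3, a pectin methylesterase gene, was at 570.4 and 590 against 42.5, 30.8 and 24.1 CPM at 16 h, and XTH19, a xyloglucan-modifying enzyme gene, at 349.9 and 354 against 21, 13.9 and 9.91 CPM. Both were much lower in every 6 h library, at most 21.9 and 6.46 CPM. GXMT1 of xylan synthesis had folds of 4.26, 31.4 and 14.3, the laccase gene LAC8 of 1.8, 29.5 and 8.14 and MUR4 of arabinose synthesis of 1.71, 3.07 and 1.91.

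Of the 4 sugar and starch genes, BMY3, of the beta-amylase family, was at 93.9, 91.7 and 91.1 CPM with ethylene and 21.5, 19.1 and 22 CPM in water at 6 h, and dry seeds held 85.7, 83.7 and 84.1 CPM. It was at 136 and 138 against 12.3, 11.3 and 12.8 CPM at 16 h and 166, 158 and 158 against 16.3, 19.1 and 15.6 CPM at 24 h. On the CPM scale the ethylene arm thus stayed above dry seeds and the water arm below them at each time. With TMM scaling dry seeds were at 158.3–168.1 CPM and ethylene at 87.8–90.5, 105.8–107.7 and 117.6–121.2 CPM, so that on this scale, which the tests use, the ethylene arm also lay below dry seeds. GPT2, which carries glucose 6-phosphate into plastids, was at 19.6, 17.8 and 23.3 against 4.04, 4.74 and 5.87 CPM at 6 h and at 807 and 806 against 50.5, 42.3 and 34.2 CPM at 16 h. Its ethylene level at 24 h was 243–261 CPM against 31.5–42.5 CPM in water. DIN10, of the raffinose synthase family, was at 98.1, 113 and 133 against 51.6, 47.6 and 36.7 CPM at 6 h, 879 and 884 against 23.5, 11.9 and 11.1 CPM at 16 h and 974, 1006 and 941 against 113, 126 and 102 CPM at 24 h. ERD6, a sugar transporter gene, had smaller folds of 1.6, 4.8 and 2.7.

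AT1G50110, an aminotransferase-like gene, was the only member at 10-fold or more at 6 h, with 36.6, 39.9 and 42.6 CPM with ethylene against 4.19, 3.86 and 3.85 CPM in water. Its fold shrank later, with 81.7 and 84.1 against 12.2, 9.12 and 10 CPM at 16 h and 70.5, 72.7 and 61.9 against 12.5, 13.7 and 12.2 CPM at 24 h. CYSC1, which detoxifies the cyanide that ethylene synthesis releases, was at 68–76.6 against 28.3–31.3 CPM at 6 h and 334–335 against 54.6–65.5 CPM at 16 h. ASPGB1, an asparaginase gene, had folds of 2.41, 23.7 and 6.22, and NSP5, a nitrile specifier gene of glucosinolate breakdown, of 2.16, 11.4 and 8.15. CYP83B1, of indole glucosinolate synthesis, was at 4.68–5.51 against 2.74–3.22 CPM at 6 h and 229.6–240.3 against 24.4–64.3 CPM at 16 h. CYP71B29, another P450 gene, had the largest fold of any member at 24 h, 57.2, with 3.97, 5.45 and 5.48 CPM against 0, 0.157 and 0.103 CPM, so that fold rests on very few reads in water.

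PRR2, a pinoresinol reductase gene of lignan synthesis, was at 5.49, 6.04 and 5.6 against 0.533, 0.636 and 0.987 CPM at 6 h and 40.1, 46.5 and 40.1 against 1.54, 1.26 and 0.774 CPM at 24 h, folds of 7.95, 62.8 and 35.5. Reads opposite to PRR2 were at 5.21–6.88 CPM with ethylene and 0.342–0.609 CPM in water at 6 h, near the levels of the gene itself. CAF1a, which shortens poly(A) tails, had folds of 4.94, 14.7 and 6.29, the receptor-like kinase gene CCR2 (CRINKLY4-related) 5.31, 11.1 and 8.55, and the F-box gene AT2G32560 4.54, 98.2 and 15.2. AT3G55240, AT3G19200, AT1G53180 and AT5G06610, whose roles are not well known, had smallest folds of 6.17, 4.66, 4.32 and 4.3. HB1, a haemoglobin gene of the low-oxygen response, was at 66.7, 63.9 and 62.6 against 37.8, 40.1 and 38.8 CPM at 6 h. At 16 h it was at 22.1 and 25.4 against 1.31, 1.25 and 1.32 CPM and at 24 h at 122, 124 and 104 against 5.31, 5.98 and 3.92 CPM. It dipped at 16 h in both arms, deeper in water. The fold grew most from 6 to 24 h in CYP71B29, HB1, GASA6 (a gibberellin-stimulated peptide gene), AT2G41810 and CAX7 (a calcium exchanger gene). It shrank most in AT3G60290, AT1G50110, BGAL16, AT1G26930 and ABCG25.

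Members with high read counts showed both time courses. ABCB15, an ABC transporter gene, was at 1339.9–1371 CPM with ethylene and 709–764 CPM in water at 6 h, and at 123–149.6 and 69.6–79.1 CPM at 24 h. AT1G26270, a phosphatidylinositol kinase family gene, was at 445–451, 469.8–473 and 464–482 CPM with ethylene at the 3 times. In water it was at 286–295 CPM at 6 h and 99.7–110 CPM at 16 h. The TMM factors with ethylene were higher at 16 and 24 h than at 6 h. With TMM scaling its ethylene levels at 16 and 24 h thus lay below that at 6 h. SAG21, a senescence-associated gene, was at 29.4–36.5 CPM at 6 h and 658–782 CPM at 24 h with ethylene, against 15.8–21.5 and 140.2–175 CPM in water. RBCS3B, a Rubisco small subunit gene, was at 388–442 CPM with ethylene at 24 h against 50.7–59.2 CPM in water, with folds of 1.85, 15.2 and 7.61. The leaf marker RBCS1A, which codes for another Rubisco small subunit, was at 8.13–8.98 against 8.6–9.22 CPM at 6 h and 1353–1504 against 449–463 CPM at 24 h, whereas CAB3 was at 0.553–0.85 CPM with ethylene at 24 h, within the range of the water libraries.

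Of 9 kinase and receptor-like members, SRF3 of the STRUBBELIG receptor family had folds of 1.72, 3.3 and 3.00 and CRK29, a cysteine-rich receptor-like kinase gene, of 2.47, 3.55 and 1.68. MAPKKK19 was at 69.7, 81.9 and 78.2 CPM with ethylene against 39.3, 39.3 and 37.5 CPM at 6 h, 46.3 and 46.4 against 2.73, 1.9 and 1.27 CPM at 16 h and 43.4, 40.5 and 44.1 against 7.44, 8.23 and 5.83 CPM at 24 h. Both arms were lower at 16 h than at 6 h, water far more so. Of the 7 F-box, kelch, BTB and RING genes, AT2G32560 was at 139.5 and 150 against 2.16, 1.09 and 1.18 CPM at 16 h and the BTB gene AT1G55760 at 82.4 and 88.7 against 1.95, 1.25 and 0.566 CPM. HEI10, known from meiotic crossing over, had folds of 2.02, 2.08 and 1.57, the smallest of the group at 16 and 24 h.

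The 8 remaining transporter and channel genes had median folds of 1.81, 4.26 and 2.94. BOR1, a boron exporter gene, was at 24.2, 25.5 and 26.2 against 8.99, 10.7 and 11.5 CPM at 6 h, 98.3 and 92.3 against 11.5, 8.46 and 8.3 CPM at 16 h and 86.1, 94.2 and 86.8 against 10.6, 11.4 and 10.1 CPM at 24 h. HA3, a plasma membrane proton pump gene, had folds of 2.22, 3.44 and 2.44 and the cyclic nucleotide-gated channel gene CNGC12 of 1.67, 4.19 and 3.28. CAX7 was at 32.8, 34.9 and 35.7 against 23.2, 22.5 and 21.3 CPM at 6 h, 14.4 and 18 against 1.26, 1.03 and 1.13 CPM at 16 h and 20.9, 20.8 and 24.7 against 1.54, 2.2 and 1.75 CPM at 24 h. Over all libraries 33.3% of the reads over CAX7 lay on the strand opposite to the gene, and those opposite reads were also higher with ethylene at each time.

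GASA6, which promotes elongation downstream of gibberellin, was at 10.7, 14.2 and 13 against 7.24, 8.07 and 7.74 CPM at 6 h. It stood at 409 and 427 against 31.3, 21.6 and 13.2 CPM at 16 h and 545, 506 and 509.7 against 33.3, 38.3 and 29 CPM at 24 h. AT2G41810, of unknown function, was at 2.88–5.38 CPM with ethylene at 24 h against 0.103–0.171 CPM in water. Among those whose fold narrowed, the oxygenase family gene AT3G60290 was at 44.1, 47.8 and 51.2 against 11.7, 11.3 and 13.7 CPM at 6 h and at 89.5, 86 and 92.7 against 41.9, 50.8 and 41.8 CPM at 24 h. BGAL16, a beta-galactosidase gene, was at 43.2–48.2 against 17.7–20.8 CPM at 6 h and 7.79–9.86 against 5.73–6.09 CPM at 24 h, and the kelch gene AT1G26930 at 3.2–3.59 against 0.733–0.78 and 4.16–4.78 against 1.28–1.99 CPM.

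Further members with large folds at 16 h were the HSP20-like chaperone gene AT4G21870 (2.67, 25.9 and 3.77), the DnaJ-domain gene AT1G72416 (5.53, 31.4 and 3.69), the aspartyl protease gene AT1G66180 (2.61, 25.8 and 13.3) and AT1G53180 (4.32, 77.9 and 25), with the ratios at 6, 16 and 24 h in brackets. KCS5, a fatty acid elongase gene of wax synthesis, had 2.51, 16.6 and 10.3, the patatin-like lipase gene PLP9 3.92, 8.79 and 5.53 and the aldehyde dehydrogenase gene ALDH3F1 2.51, 4.76 and 6.07. Small folds at all times belonged to SBP1, a selenium-binding protein gene (1.52, 2.001 and 2.3), to AT5G05880, a glycosyltransferase family gene (1.94, 1.95 and 1.81), and to AT5G23480 (1.55, 1.83 and 1.54). SBP1 was at 135–160.1 CPM in dry seeds, 89.4–92.9 in water and 136–141 with ethylene at 6 h, and 116–121 and 266–277 CPM at 24 h. The TMM factors were 0.501–0.529 in dry seeds and 1.34–1.37 with ethylene at 24 h. With TMM scaling SBP1 with ethylene at 24 h thus lay below dry seeds. The noncoding RNA AT2G44798 was at 55.3, 60.5 and 73.7 against 12.6, 16.8 and 12.5 CPM at 6 h and had folds of 3.26 and 3.24 later, and 14.3% of its reads lay on the opposite strand, where AT2G44800 overlaps it.

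Changes over time within each arm were not the contrast that chose the members, and were tested with edgeR over 19298 genes in 20 libraries. All 159 members were tested, as the CPM floor of the rule ensures. The same imbibed libraries entered the choice, so the choice bears on the members' counts: a member had to reach 3 CPM with ethylene at each time, with no demand on dry seeds, and to lie lower in water than with ethylene at each. Shares are therefore given both for all genes tested and for the 12564 genes that reached that CPM floor, and the gap between members and other genes is a description that the choice helped to shape. Log2 changes are on the scale of the edgeR fit, with TMM scaling, and are given with their Wald SE, which was held to at least the counting error.

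From dry seeds to 6 h in water most members rose. Of the 159 members 118 were called higher and 28 lower, against 40.6% higher and 34.5% lower among all genes tested and 49.5% and 36.6% among genes over the floor. The median log2 change was 2.103, against 0.10 for all genes and 0.19 for those over the floor. Dry levels were low: the members' mean CPM in dry seeds was 1.05 at the median, 79 lay under 1 CPM and 8 had 0 counts in all dry libraries. Of the 4 largest increases in the edgeR fit, only that of WOX11 started from dry counts above 0 (log2 change 9.48 ± 0.55, adjusted p 9.39e-33). With 7 dry counts in all, its ratio of summed counts was 734 with TMM scaling (95% exact counting interval 356 to 1827). The other 3 of the 4 largest started from 0 dry counts, so only a bound can be given, with the dry group set to 3 counts in all: with TMM scaling AT5G17760 rose at least 126.5-fold, AT5G03310, a SAUR gene, at least 38.8-fold and HEC1 at least 35.5-fold. bZIP44, with 3 dry counts, had a ratio of 362 on the same scale (95% exact counting interval 123.8 to 1757), and ASPGB1, with 1, of 515.7 (92.3 to 20383). In CPM without TMM scaling these bounds and ratios were about as much larger as the dry scaling factors of 0.501 to 0.529 make them, at least 255-fold for AT5G17760 and 730.3 for bZIP44. These intervals and floors cover counting error only.

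The largest decreases from dry seeds were in ABCG25 (13.9–17.7 CPM in dry seeds and 2.21–2.88 CPM in water; log2 change -3.60 ± 0.18, adjusted p 1.49e-20), the hydrolase family gene AT5G22460 (145–154 and 31.1–32.4 CPM; log2 change -3.25 ± 0.07, adjusted p 8.02e-30), BMY3 (log2 change -3.03 ± 0.06, adjusted p 1.77e-29) and AT5G20790 (log2 change -2.38 ± 0.09, adjusted p 5.23e-22). In dry seeds 52.7% of the reads over AT5G20790 were on the opposite strand, which was not counted here. In CPM, 15 members had a higher mean in dry seeds than in water at 6 h, and 4 a higher one than with ethylene at 6 h. Scaling mattered here. With library totals alone 138 members were called higher and 12 lower, the whole gene median rose to 1.11 and 13120 genes were called higher against 2920 lower, while TMM gave 7835 and 6656. CAX7 was at 19.1–20 CPM in dry seeds and 21.3–23.2 CPM in water, yet fell on the TMM scale (log2 change -0.82 ± 0.08, adjusted p 6.6e-11), and with library totals it rose (log2 change 0.19). The call on the TMM scale was lost with ethylene 16 h replicate 2 kept, at adjusted p = 0.121. AT4G35160 likewise was at 76.1–83.4 and 91.5–101 CPM, fell on the TMM scale (log2 change -0.76 ± 0.06, adjusted p 3.81e-13) and rose with library totals (log2 change 0.25). In all, 17 members changed sign between these scalings. With the library labelled ethylene 16 h replicate 2 kept in the fit, 101 members were called higher and 19 lower.

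Between 6 and 16 h in water 44 members were called higher and 95 lower, against 38.9% and 37.3% of all genes and 37.6% and 46.4% of those over the floor. The median log2 change was -0.64, against 0.02 and -0.09. The rule asked for low water levels relative to ethylene at 16 h, so this gap is not independent of the choice. The largest decreases were in AT5G24570 (log2 change -5.10 ± 0.24, adjusted p 5.79e-24), HB1 (log2 change -4.96 ± 0.20, adjusted p 1.23e-25), the glycosyl hydrolase gene AT5G55180 (log2 change -4.52 ± 0.41, adjusted p 2.48e-16) and the kinase gene MAPKKK19 (log2 change -4.36 ± 0.19, adjusted p 7.2e-24). MAPKKK19 was at 37.5–39.3 CPM at 6 h and at 1.27–2.73 CPM at 16 h. The largest increases were in CYP83B1 (log2 change 3.79 ± 0.32, adjusted p 3.65e-15), ABCG25 (log2 change 3.15 ± 0.18, adjusted p 3.5e-19), GPT2 (log2 change 3.03 ± 0.15, adjusted p 6.35e-20) and PDCB1, a callose-binding protein gene (log2 change 2.84 ± 0.12, adjusted p 2.28e-22). All 5 NAC and all 5 homeobox genes fell, as did 8 of 13 cell wall genes, of which 3 rose. With the library labelled ethylene 16 h replicate 2 kept, 28 members were called higher and 62 lower.

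From 16 to 24 h in water the balance turned, with 86 members higher and 14 lower against 24.4% and 20.1% of all genes and 18.1% and 27.8% of those over the floor (median log2 change 0.36, 0.01 and -0.05). AT2G43140 rose most (log2 change 4.19 ± 0.40, adjusted p 1.28e-13), followed by the homeodomain-like factor gene AT5G58900 (log2 change 3.44 ± 0.28, adjusted p 3.91e-14), BXL2 (log2 change 3.16 ± 0.16, adjusted p 4.44e-17) and AT2G32560 (log2 change 3.09 ± 0.19, adjusted p 4.44e-17). The largest decreases were small: AT1G15825 (log2 change -0.71 ± 0.12, adjusted p 5.39e-06), ABCB15 (log2 change -0.64 ± 0.07, adjusted p 1.47e-08), AT4G35160 (log2 change -0.56 ± 0.08, adjusted p 6.24e-07) and MUR4 (log2 change -0.52 ± 0.08, adjusted p 2.88e-06). AT1G15825 was not called when the reads of both strands were counted. Without water 24 h replicate 3, whose leaf markers stood apart, 98 members were called, and the rule still gave 159 genes. The number of calls depended on the library labelled ethylene 16 h replicate 2. This library is in neither compared group but enters the shared estimate of spread. With it kept, 18 members were called higher and 2 lower, and ABCB15 and MUR4 were not called, at adjusted p = 0.123 and 0.116. The members' median log2 change was then 0.37, against 0.36 without it. A fit on the 2 compared groups alone called 86 members higher and 12 lower.

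**Figure D4:**
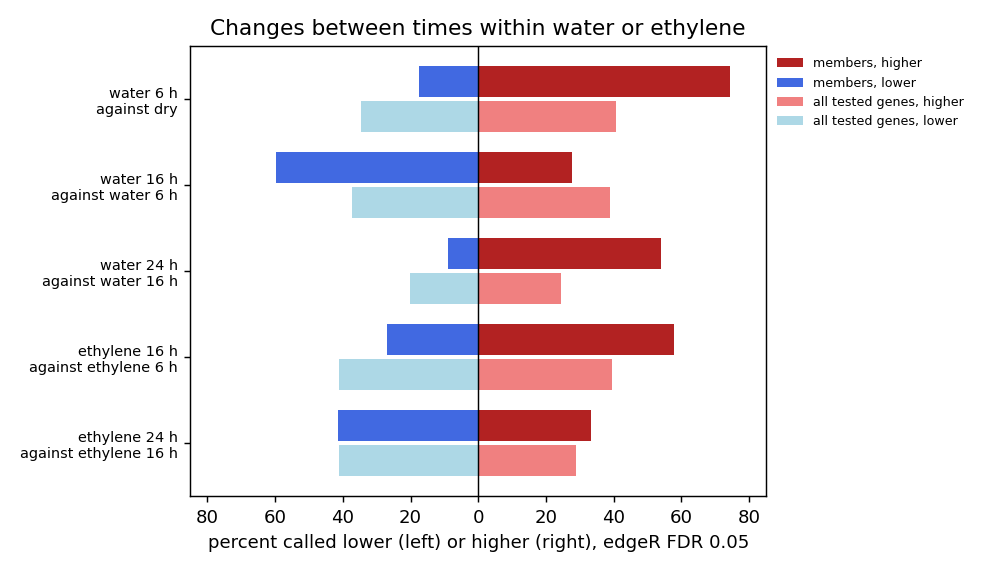
Percent called higher (right) or lower (left) at an FDR of 0.05 in 5 comparisons, for the 159 members (dark bars) and for all 19298 tested genes (light bars). From dry seeds to 6 h in water 74.2% of members and 40.6% of all genes were called higher, and from 6 to 16 h in water 59.7% and 37.3% were called lower, gaps that the choice of members helped to shape.

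With ethylene the members mainly rose between 6 and 16 h: 92 were called higher and 43 lower, against 39.6% and 41.2% of all genes and 34.5% and 50.3% of those over the floor. The median log2 change was 0.53, against -0.01 and -0.18. XTH19 rose most (log2 change 5.62 ± 0.17, adjusted p 1e-26), then CYP83B1 (log2 change 5.22 ± 0.25, adjusted p 1.74e-21), GPT2 (log2 change 5.01 ± 0.10, adjusted p 2.03e-29) and GASA6 (log2 change 4.74 ± 0.15, adjusted p 6.56e-25). The largest decreases were in AT5G24570 (log2 change -3.30 ± 0.14, adjusted p 4.9e-22), WOX11 (log2 change -2.57 ± 0.06, adjusted p 3.16e-27), IAGLU (log2 change -2.25 ± 0.07, adjusted p 1.26e-23) and the methyltransferase gene AT4G35160 (log2 change -2.25 ± 0.07, adjusted p 2.38e-24). With library totals alone 112 members were called higher and 36 lower (9526 and 5857 of all genes). Kept in its labelled group, ethylene 16 h replicate 2 left 56 higher and 37 lower.

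From 16 to 24 h with ethylene the calls were divided, 53 higher and 66 lower against 28.8% and 41.1% of all genes and 20% and 54.1% of those over the floor. The median log2 change was -0.12 for members, -0.12 for all genes and -0.22 for those over the floor. This split depended on the scaling, since RLE size factors gave 68 higher and 49 lower (7331 and 5551 of all genes), with medians of 0.07 for both, and reads of both strands 59 and 53. ERD3, a methyltransferase gene (log2 change 2.27 ± 0.15, adjusted p 6.17e-15), HB1 (log2 change 2.22 ± 0.08, adjusted p 6.57e-21), RBCS3B (log2 change 1.45 ± 0.08, adjusted p 9.18e-17) and NAC6 (log2 change 1.40 ± 0.16, adjusted p 2.84e-09) rose most. ABCB15 (log2 change -1.85 ± 0.07, adjusted p 2.12e-20), GPT2 (log2 change -1.75 ± 0.08, adjusted p 1.58e-18), the SAUR gene AT1G17345 (log2 change -1.65 ± 0.13, adjusted p 1.04e-12) and ESE3 (log2 change -1.62 ± 0.07, adjusted p 5.33e-20) fell most. With ethylene 16 h replicate 2 kept, 31 were higher and 10 lower, and GPT2 was not called, at adjusted p = 0.0639.

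Read in both arms, the step from 6 to 16 h divided the module. Of the 159 members 44 rose in both water and ethylene, among them XTH19, PME3, GPT2, CYP83B1, SAG21 and GASA6, 41 fell in both, among them WOX11, IAGLU, HLS1, CTR1, ABI1 and ABCB15, and 36 fell in water while they rose with ethylene. A further 18 fell in water and were not called with ethylene (11.3%, against 4.89% of the genes tested and 5.72% of those over the floor). Another 12 rose with ethylene and were not called in water (7.55%, against 8.47% and 4.97%). AT1G61370 and AT2G44798 fell with ethylene and were not called in water (1.26%, against 6.60% and 7.21%), and 6 were called in neither (3.77%, against 8.70% and 3.86%). Of the 19298 genes tested 26.8% rose in both, 28.1% fell in both and 4.28% fell in water and rose with ethylene. Among those over the floor these shares were 23.7%, 34.9% and 5.76%, against 27.7%, 25.8% and 22.6% of the members. The rule itself favoured the last class and left little room for its opposite, so these shares describe the choice. The difference between the arms at 16 and 6 h is the contrast the rule used, so it was not tested. Among the 36, DIN10 had log2 changes of -1.60 ± 0.16 in water and 2.64 ± 0.13 with ethylene, AT2G43140 of -1.81 ± 0.44 and 2.53 ± 0.10, HB23 of -1.06 ± 0.17 and 2.15 ± 0.10, and the laccase gene LAC8 of -1.57 ± 0.18 and 2.22 ± 0.11. PYL6 (-2.55 ± 0.21 and 1.16 ± 0.10), NAC080, NAC083, NAC019, HB16 and BMY3 also belonged to them. With ethylene 16 h replicate 2 kept, the water calls of DIN10, AT2G43140, HB23 and LAC8 were lost, at adjusted p = 0.0736, 0.332, 0.168 and 0.0623, as was the ethylene call of PYL6, at 0.371. In 32 of the 36 (20.1% of the members) the libraries at 6 and 16 h did not overlap in either arm, against 3.64% of the genes tested and 4.93% of those over the floor. Of all tested genes so called, 703 of 826 likewise had no overlap.

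**Figure D5:**
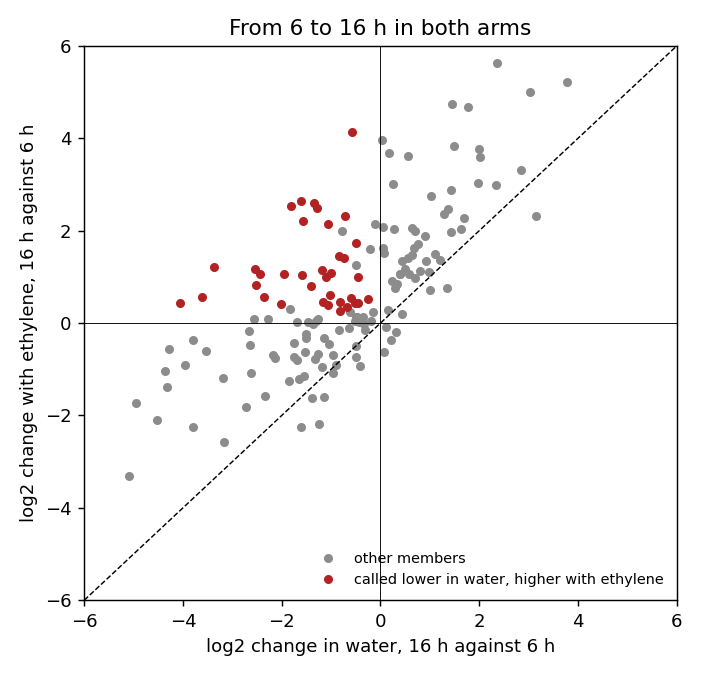
Log2 change from 6 to 16 h in water (horizontal axis) and with ethylene (vertical axis) for each of the 159 members, with the line of equal change (dashed). The 36 red points were called lower in water and higher with ethylene and fill the upper left.

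From 16 to 24 h 45 members rose in both arms (28.3%, against 16.3% of the genes tested and 9.35% of those over the floor), 12 fell in both (7.55%, against 16.6% and 23.4%), 20 rose in water and fell with ethylene (12.6%, against 3.74% and 4.79%), and 1, AT4G35070, fell in water and rose with ethylene. A further 34 fell with ethylene without a call in water (21.4%, against 20.7% and 25.9%), and 21 rose in water without a call with ethylene (13.2%, against 4.38% and 3.94%). AT4G35160 was called lower at all 5 steps with TMM scaling, but with library totals the step from dry seeds turned and 0 members were lower at all 5. XTH19, SAG21, AUX1, AT1G66180, ALDH3F1, HA3, ATS1, AT5G05420 and AT3G14840 were called higher at all 5, with TMM, RLE and library-total scaling alike.

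The members lay on all 5 chromosomes, with 38, 21, 26, 27 and 47 on chromosomes 1 to 5. In 7 of 159 members (4.4%) a directly adjacent gene of the annotation was a member or one of the 6 genes left aside, against 1.05% of 12397 other genes over the floor. The pairs were ARA4 with AT2G43140, AT3G50340 with AT3G50350, AT4G15545 with IAGLU, and AT3G59890 with ARGOS. ARA4, a small GTPase gene on the same strand as AT2G43140, had folds of 1.54, 2.78 and 2.96, against 8.3, 207 and 25.4 for its neighbour. AT4G15545 and IAGLU lie on opposite strands and overlap. The counts are stranded, so reads at their shared bases were assigned by strand. Reads on the opposite strand made up 6.43% of those over AT4G15545 and 4.69% over IAGLU. How many reads were assigned to the wrong one of this pair was not measured.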

How the data were processed

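Messenger RNA of 21 seed libraries was sequenced single-end from stranded poly(A)-selected libraries, per the labels' protocols. The authors deposited read counts per gene, with 3 strand columns per library and 4 summary lines that name no gene, which were left out. STAR and TAIR10 are named in the submitters' processing notes, and the tool versions are not given in the sources used here. Reverse-strand counts were used, since 2.72 to 5.41% of the reads over genes lay on the forward strand. Of all reads 1.44 to 2.47% mapped to several places, 0.752 to 2.78% to no gene, 0.0776 to 0.166% to more than 1 gene, and 0.209 to 2.04% were unmapped.

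CPM was the count divided by the sum over genes. The members and gene lists were chosen with earlier results of these data known. Changes over time were tested with edgeR 4.0.16 in R 4.3.3 (quasi-likelihood F test, 2-sided, TMM scaling, default expression filter, Benjamini-Hochberg over 19298 genes, FDR 0.05) in 1 fit of 7 groups and 20 libraries. DESeq2 1.42.0, other scalings, filters and strands, a replicate block and leaving out each library were alternatives. In simulated counts for water 6 h against dry over 18331 genes, 87 of 100 genes changed 1.5-fold and 96 of 100 changed 2-fold were recovered, with 13 false among 196 calls. All groups there shared a common mean per gene, and only these genes were changed, as many up as down. The simulation thus lacked the broad shift between dry and imbibed seeds. It cannot show how the calls behave under that shift or under different scalings. Its changed genes were drawn above a minimum mean count, and every gene had the same fixed dispersion. The recovery is thus not shown for genes with few dry counts, and 79 members lay under 1 CPM in dry seeds.

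Members were named if among the 12 with the largest smallest fold, the 8 with the highest mean ethylene CPM, those of the lists, the 5 whose fold grew and the 5 whose fold shrank most from 6 to 24 h, the 4 largest changes either way in each comparison, or the 4 genes either side of each threshold. Others were named by product or role, after their values were seen. Gene symbols and products came from RefSeq, which matched 37051 gene identifiers. Figures were drawn with matplotlib 3.10.9 and Python 3.11.15.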

Additional observations from a re-analysis of the deposited data

Results flagged for a closer look

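Reads on the strand opposite to the gene were not used in any comparison. Over CAX7, 33.3% of all reads of the imbibed and dry libraries lay on that strand, and over PRR2 15.8%, and in both the opposite reads were above the water level in every ethylene library at each time. The same held for AT5G56220, with 18.2% of reads on the opposite strand, and for AT4G15545, with 6.43%. Each of these is overlapped by another gene, AT5G56220 by AT5G08445 and AT4G15545 by IAGLU. Opposite reads made up 97.8% of those over AT1G15670 in dry seeds.

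From 6 to 16 h, 32 members were called lower in water and higher with ethylene, with no overlap of the 6 and 16 h libraries in either arm (20.1% of the members, against 3.64% of the genes tested). This difference between the arms was not tested, because the excess of ethylene over water at each time chose the members. The rule itself favoured members lower in water and higher with ethylene, so their share describes the choice. Of all tested genes so called, 703 of 826 likewise had no overlap.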

How the results depend on the processing

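Of 171 alternatives for counts of genes or members, 164 gave a count within 1.5 times the one reported. The exceptions among the rule's alternatives were 466 genes at a fold of 1.2, 68 at a fold of 2 and 102 at a floor of 10 CPM. The other rule alternatives gave 228 genes at a floor of 1 CPM, 135 from TMM-scaled CPM, 160 from both strands, 153 with all 3 ethylene 16 h libraries and 159 when the libraries had to be separated besides. With the library labelled ethylene 16 h replicate 2 kept, 90 members were called from 6 to 16 h in water, 20 members and 3525 genes from 16 to 24 h in water, and 41 members from 16 to 24 h with ethylene. The biological coefficient of variation was then 0.177 in place of 0.0466. Leaving out each library in turn gave 153 to 171 members by the rule. In the order water 6 h against dry, water 16 against 6 h, water 24 against 16 h, ethylene 16 against 6 h and ethylene 24 against 16 h, it gave 14014 to 14306, 14127 to 14339, 7401 to 7857, 14663 to 15227 and 11986 to 12812 genes. For members these ranges were 143 to 145, 131 to 139, 92 to 100, 132 to 136 and 103 to 113. Same-numbered libraries did not deviate together (r of -0.054 to 0.12, and 5 of 20 libraries correlated best with their own number). With replicate number as a block the calls in that order were 14416, 14656, 8523, 15527 and 13370 genes and 146, 138, 99, 135 and 119 members. Of 758 alternatives for 52 tested values of single members, 2 changed sign and 10 lost the call. With library totals the change from dry seeds to 6 h in water was 0.19 for CAX7 and 0.25 for AT4G35160 (log2). The calls lost were AT1G15825 from 16 to 24 h in water with both strands (-0.17) and, with ethylene 16 h replicate 2 kept, CAX7 from dry seeds (-0.82), ABCB15 (-0.64) and MUR4 (-0.52) from 16 to 24 h in water, GPT2 (-1.20) from 16 to 24 h with ethylene, DIN10 (-1.61), AT2G43140 (-1.82), HB23 (-1.07) and LAC8 (-1.57) from 6 to 16 h in water and PYL6 (0.61) over that step with ethylene. Over all 159 members, library totals turned the sign of 17 changes from dry seeds to 6 h in water, and RLE that of 23 changes from 16 to 24 h with ethylene. Members at few reads in water or dry seeds have the least certain ratios.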
